A study of Mus musculus with 2 samples.

Results

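The genes described here act in the Fanconi anaemia pathway, in homologous recombination and in the DNA damage checkpoint. They were 40 genes, chosen by the gene symbol in the authors' table, out of 26878 named genes on the array. Their transcripts were measured in a stem cell line grown by the neurosphere method from a murine glioblastoma that had been induced with the SB transposon. 1 array (n = 1) held the line stably carrying a lentiviral short hairpin RNA against Stat5b (Stat5b-knockdown), and the other (n = 1) held the line carrying a lentiviral non-target hairpin (control). Both cultures came from serum-free neural stem cell medium with B27, N2, EGF and bFGF, and both carried a lentiviral hairpin, so neither was untreated. The labels name 1 glioblastoma stem cell line and do not say how many hairpins, clones or cultures stood behind each array. The question stated for the series is what lowering Stat5b, a transcription factor downstream of cytokine receptors, does to gene expression.

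The Fanconi pathway removes crosslinks that join the strands of DNA. A core complex of Fanconi proteins is brought to a stalled replication fork and attaches ubiquitin to the FANCI-FANCD2 clamp, after which nucleases cut the crosslink out and the resulting break is mended by homologous recombination. In that repair the broken ends are trimmed to single strands, BRCA2 loads a recombinase on them with the help of BRCA1, PALB2 and the recombinase paralogs, and the strand copies its sister, while the kinases ATR and ATM hold the cell cycle. Many of these genes are transcribed mainly in dividing cells around S phase, and glioma stem cells are known for active checkpoint signalling.

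A gene's value is the mean log2 signal over those of its probes that both arrays measured well above background, after each array was scaled to its 75th percentile, and a difference is Stat5b-knockdown minus control. Signals are the scanner's processed intensities in arbitrary units and compare the arrays for 1 probe only, never 1 gene with another. With 1 array of each kind there is no replicate check and no test, and a gene was counted as lower or higher by size alone, at 2-fold (a log2 difference of 1) or 1.5-fold (0.585). The ± beside a difference is the scanner software's own error, combined over both arrays and over a gene's probes as if these were independent. It shrinks with the number of probes and covers neither the spread between probes nor differences between cultures. As measured spreads, the difference had an SD of 0.0576 over replicate spots of 1 probe (297 probes) and of 0.310 over different probes of 1 gene (7244 genes).

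Over the whole array, 16354 genes were measured on both arrays, with a median difference of 0.01 and a 5th to 95th percentile of -0.76 to 0.89. The targeted gene, Stat5b, had a signal of 498 on the knockdown array and 1991 on the control array, a difference of -2.001 ± 0.20, which left 24.98% of the control level. That value rests on the brighter Stat5b probe alone. The dimmer Stat5b probe read 7.49 on the knockdown array, where it was not well above background, and 14.7 on the control array. Among 9 neural stem cell markers, 7 were well above background on the knockdown array and 6 on the control array. Sox2 and Fabp7, which help define neural stem cells, were not well above background on either. The summed signal of the 9 neural stem cell markers was 118418 on the knockdown array and 125624 on the control array. Of these sums, Vim alone gave 88538 on the knockdown array and 96090 on the control array. The summed signal of 4 fibroblast markers was 2523 on the knockdown array (3 detected) and 955 on the control array (4 detected). Such a sum follows its brightest genes. Col1a2 read 1728 on the knockdown array and 462 on the control array, and Dcn and Col1a1 were also higher on the knockdown array. Lum went the other way, with 3.21 on the knockdown array and 76.8 on the control array. For 7 microglial and immune markers, 4 of them detected on each array, it was 10397 on the knockdown array and 8141 on the control array. Most of it came from 1 Ptprc probe (4831 on the knockdown array, 3288 on the control array) and 1 Itgam probe (4632 and 4250). All other Ptprc probes were not well above background on either array. Astrocyte markers (4 of 5 detected) summed to 295 on the knockdown array and 192 on the control array, and oligodendrocyte markers (5 of 5) to 2377 on the knockdown array and 2460.2 on the control array. Of the astrocyte sums, S100b gave 122 on the knockdown array and 9.22 on the control array. The brightest probes of Aldh1l1 (43.4 on the knockdown array, 45.9 on the control array) and Aqp4 (79.0 and 80.2) read slightly lower on the knockdown array. Gfap read 15.1 there, which was not well above background, and 23.2 on the control array. Slc1a2 read slightly higher on the knockdown array (34.9 and 33.9). Dimmer Aqp4 probes also read higher there (50.4 and 13.5, 28.9 and 12.2). Neuron markers (3 of 5) summed to 5749.7 on the knockdown array and 5118 on the control array, and endothelial and mural markers (4 of 6) to 229.7 on the knockdown array and 188 on the control array. Aif1, Cx3cr1 and P2ry12 of the microglial list, Rbfox3 and Syt1 of the neuronal list, and Kdr and Cldn5 of the endothelial list were likewise too dim to detect on both arrays. Whether other cell types were present or had a part in the repair gene values was not tested. In such bulk RNA, fewer cells of a type or phase and less RNA per cell cannot be told apart.

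All 40 genes were measured on both arrays, through 81 of their 93 probes, with signals between 16.0 and 28085. Clspn was the 1 gene past 2-fold in the lower direction, 2.5% of the 40 against 2.41% of all measured genes. Rad51b was the 1 gene past 2-fold in the higher direction, also 2.5%, against 3.67% of all measured genes. At 1.5-fold, Clspn, Atm, Usp1 and Fancb were lower, 4 genes or 10.0% against 8.42% of all genes, and Fancg and Rad51b were higher, 2 genes or 5.0% against 11.0%. The shares past either fold on the lower side were thus near those of the whole array, and whether the smaller share on the 1.5-fold higher side differs from it was not tested.

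The sign of the differences was less even than on the whole array. Of the 40 genes, 26 lay below 0 (65.0%), against 48.8% of all measured genes, and their median was -0.12. Beyond the SD between probes of 1 gene, 14 genes (35.0%) were lower, against 20.3% of all genes, and 6 (15.0%) were higher, against 23.0%. The remaining 20 genes differed by less than that SD. Among the 26 genes with several probes in use, the probes had the same sign in 19 and both signs in 7.

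**Figure D1:**
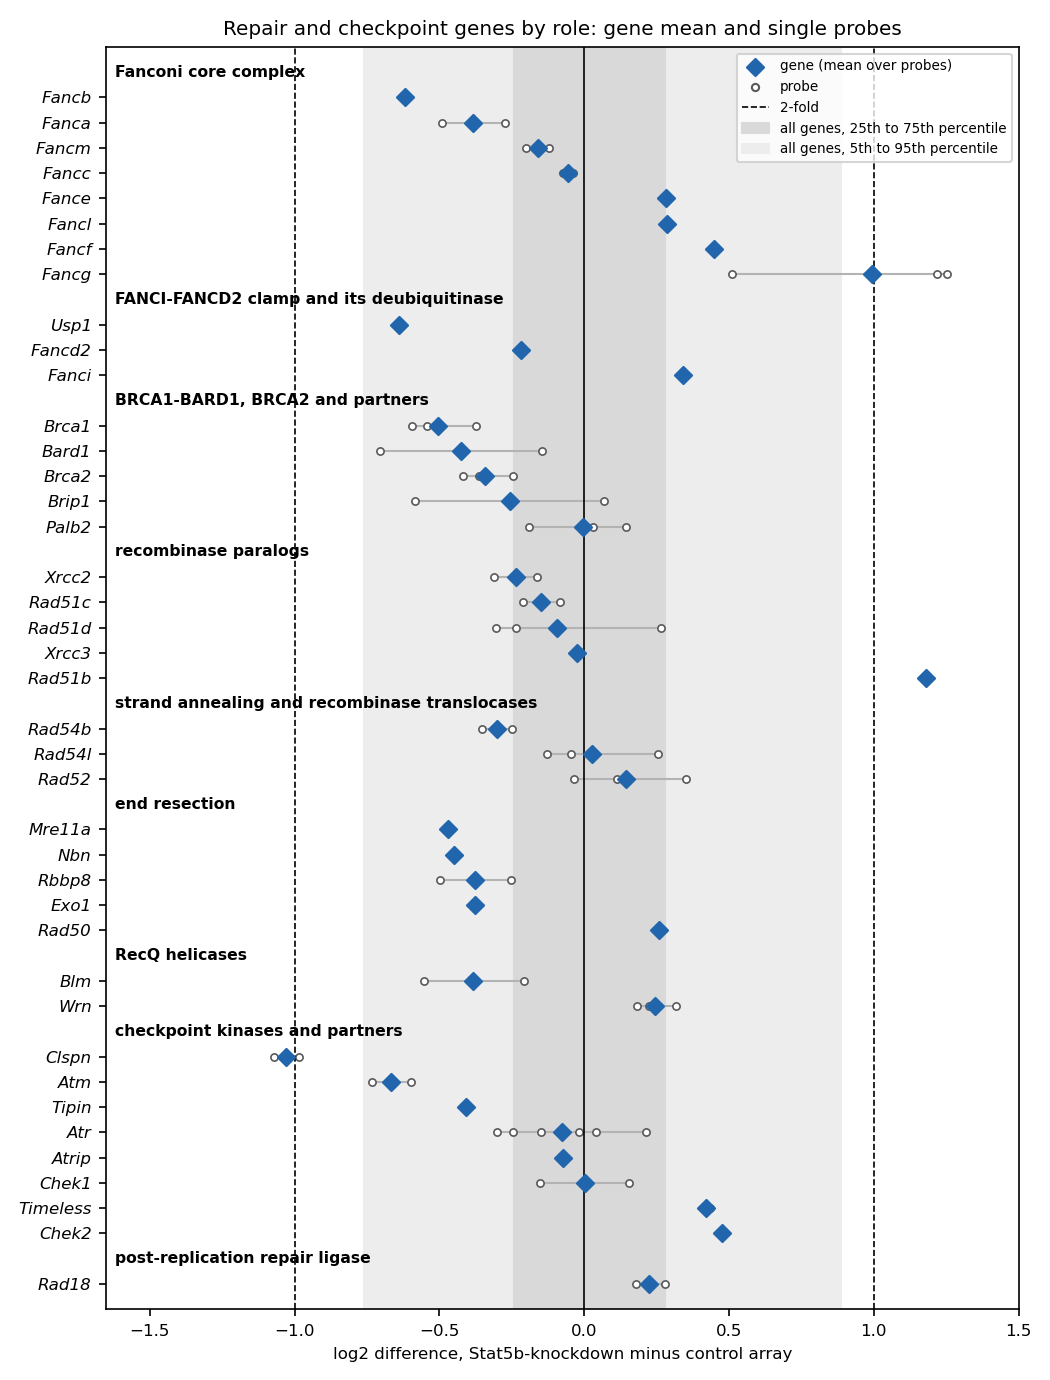
Log2 difference (Stat5b-knockdown minus control, horizontal axis) of each of the 40 genes, grouped by role, with diamonds for gene means, open circles for single probes and dashed lines at 2-fold. Shading marks the 25th to 75th and the 5th to 95th percentiles of all 16354 measured genes. Clspn lies past the lower dashed line at -1.03, Rad51b past the upper one at 1.18 and Fancg just under it at 0.99, while all 5 genes of the BRCA group lie below 0.

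Claspin (Clspn) is the adaptor that lets ATR phosphorylate the checkpoint kinase CHK1 at stalled forks. Its transcript had probe signals of 237 and 93.5 on the Stat5b-knockdown array, against 469 and 196 on the control array. Both probes were lower on the knockdown array, by -0.99 and -1.07, and the gene's difference of -1.03 ± 0.15 corresponds to 49.0% of the control level. The gap between its probes is far smaller than the SD between probes of 1 gene. The 2-fold mark is close, however. It was kept in 7 of 9 alternative settings, but several of these leave the probes and signals of Clspn as they were and could not move its value. A different background correction (normexp) gave -0.75, and the brightest probe alone gave -0.99. The probes and the promoter are shown because this is the lowest of the 40 genes. The first 30 of the 60 bases of each probe, taken from the authors' table, are given without capitals.
Clspn probe of the brighter signal: tgaggagcggcagaagcgccaagcattatt
Clspn probe of the dimmer signal: ccagcgctccccgaaactcaaggaactttg
The RefSeq promoter window of Clspn, on the plus strand at chr4:126556730-126557029 of build GRCm38.p6, runs from 250 bases before to 50 bases after the start of the gene. Capitals mark GCGCGAAA, the opposite strand of the E2F-type letters TTTCGCGC, which begin 21 bases after the start.
Clspn promoter: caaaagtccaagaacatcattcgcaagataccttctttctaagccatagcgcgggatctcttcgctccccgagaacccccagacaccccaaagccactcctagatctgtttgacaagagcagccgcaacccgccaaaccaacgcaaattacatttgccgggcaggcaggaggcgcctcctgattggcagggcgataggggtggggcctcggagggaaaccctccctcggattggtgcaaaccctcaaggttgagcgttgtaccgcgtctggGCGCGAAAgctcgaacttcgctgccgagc

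The other checkpoint genes did not share that value. ATM, the kinase that answers double-strand breaks, had Atm probe signals of 266 and 212 on the knockdown array and 441 and 321 on the control array. Both of its probes were lower, by -0.73 and -0.60, and the gene's difference was -0.67 ± 0.15, or 63.0% of control. Atr, which encodes the kinase that answers stalled forks, had its RefSeq probe at 1163 on the knockdown array and 1290 on the control array. With 6 of its 8 probes in use, spread from -0.30 to 0.21, the Atr difference was -0.08 ± 0.11. Atrip, the partner of ATR, had 1577 on the knockdown array and 1658 on the control array, a difference of -0.07 ± 0.20. Neither gene of the ATR-ATRIP pair differed by more than the SD between probes.

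The effector kinases of the checkpoint also went without a common direction. Chek1 (CHK1) had signals of 281 and 330 on the knockdown array, against 312 and 296 on the control array, and its probes gave -0.15 and 0.16. Its mean of 0.00 ± 0.14 thus averages probes of opposite sign. Chek2 (CHK2, the kinase downstream of ATM) had 359 on the knockdown array and 258 on the control array, a difference of 0.48 ± 0.20. Timeless and Tipin encode the pair that steadies the fork and holds Claspin there. Timeless had 2320 and 1218 on the knockdown array, against 1747 and 899.98 on the control array, a difference of 0.42 ± 0.14. Tipin had 8089.7 on the knockdown array and 10735 on the control array, a difference of -0.41 ± 0.20. The transcripts of these binding partners thus differed in opposite directions, each beyond the SD between probes of 1 gene. Over the 8 checkpoint genes the median was -0.08, with 5 below 0.

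In the Fanconi core complex, the ubiquitin ligase assembly of the pathway, 4 genes lay below 0 and 4 above, with a median of 0.11. Fancg encodes a scaffold subunit that binds FANCA. It had probe signals of 769, 61.4 and 51.2 on the knockdown array, against 330.1, 43.0 and 21.4 on the control array. All 3 probes were higher, by 1.22, 0.51 and 1.25, and the gene's difference of 0.99 ± 0.14 corresponds to 1.99-fold, just under the 2-fold mark. Fancg was past 2-fold in 2 of 10 alternatives, and its lowest value was 0.56 with the normexp background. It is the highest of the core complex, so its probes and promoter are shown, the probes again as 30 of 60 bases.
Fancg probe of the brightest signal: agcctttctgagggaaaggctatgttaatc
Fancg probe of the middle signal: acccacctcctctctaggtccctgtatacc
Fancg probe of the dimmest signal: aacaaggctccgactgtgagcagaagtgta
Its RefSeq promoter window lies on the minus strand at chr4:43010252-43010551 of GRCm38.p6. Capitals mark TTTCCCGC, E2F-type letters that begin 52 bases before the start.
Fancg promoter: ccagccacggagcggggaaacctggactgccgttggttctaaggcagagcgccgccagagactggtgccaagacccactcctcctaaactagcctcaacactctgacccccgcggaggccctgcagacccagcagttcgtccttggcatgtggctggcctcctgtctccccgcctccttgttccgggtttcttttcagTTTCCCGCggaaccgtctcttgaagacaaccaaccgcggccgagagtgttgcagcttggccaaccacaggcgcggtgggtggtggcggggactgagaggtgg

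FANCA, the partner of FANCG, had values on the other side of 0. Fanca probes read 1854 and 108 on the knockdown array, against 2605 and 131 on the control array, and the gene's difference was -0.38 ± 0.15. A further Fanca probe read 5.13 on the knockdown array, where it was not well above background, and 23.3 on the control array, so it was at least 1.79-fold higher in control. With the dim probes counted in, the Fanca difference was -0.71. Fancb, which encodes a subunit of the catalytic part of the complex, had 1179 on the knockdown array and 1809.8 on the control array. The Fancb difference was -0.62 ± 0.20, or 65.1% of control, from 1 probe. Fancl encodes the ubiquitin ligase subunit itself. It had 444 on the knockdown array and 364 on the control array, a difference of 0.29 ± 0.20, which is within the SD between probes. Fancb and Fancl, both of the catalytic part, thus had values of opposite sign.

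These promoters are shown because they, with that of Rad54l, hold the STAT-type letters TTCNNNGAA, of interest where a STAT factor was lowered. Capitals mark those letters, which begin 55 bases before the start of Fancb (plus strand, chrX:164980342-164980641) and 127 bases before the start of Fancl (plus strand, chr11:26386834-26387133), in GRCm38.p6 from RefSeq.
Fancb promoter: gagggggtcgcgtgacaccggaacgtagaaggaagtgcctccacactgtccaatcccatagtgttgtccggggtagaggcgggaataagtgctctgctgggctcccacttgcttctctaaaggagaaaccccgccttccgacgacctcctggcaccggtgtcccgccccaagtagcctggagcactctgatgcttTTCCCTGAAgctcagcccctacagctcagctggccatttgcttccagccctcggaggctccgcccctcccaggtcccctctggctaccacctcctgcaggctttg
Fancl promoter: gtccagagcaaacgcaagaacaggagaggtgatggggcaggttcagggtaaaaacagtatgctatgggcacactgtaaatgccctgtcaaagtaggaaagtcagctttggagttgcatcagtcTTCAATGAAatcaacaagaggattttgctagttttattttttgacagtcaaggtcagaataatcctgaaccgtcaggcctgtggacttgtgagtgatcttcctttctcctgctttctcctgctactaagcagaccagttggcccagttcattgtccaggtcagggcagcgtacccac

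Most of the remaining core subunits stayed within the SD between probes. Fancf, an adaptor that holds the complex together, had 2200.0 on the knockdown array and 1611 on the control array, a difference of 0.45 ± 0.20. Fance, the subunit that contacts FANCD2, had 8306 and 821 on the knockdown array, against 6812 and 677 on the control array, a difference of 0.28 ± 0.14. Fancc, which binds FANCE, had 163 and 47.0 on the knockdown array, against 168 and 49.4 on the control array, a difference of -0.06 ± 0.16. The Fance probes gave nearly 1 value, and so did those of Fancc. Fancm, the translocase that anchors the complex on DNA, had 679 and 499.7 on the knockdown array, against 781 and 543 on the control array, a difference of -0.16 ± 0.14.

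The substrate of the core complex and the enzyme that reverses its mark gave 3 different values, with a median of -0.22. Usp1, whose enzyme removes ubiquitin from FANCD2 and FANCI, had 3132 on the knockdown array and 4869 on the control array. The difference of -0.64 ± 0.20, or 64.3% of control, rests on 1 probe, which lies in the last 64 rows of the array. Fancd2 had 162 on the knockdown array and 189 on the control array, a difference of -0.22 ± 0.21. Fanci had 1071 on the knockdown array and 846 on the control array, a difference of 0.34 ± 0.20. With the dim probes of Fanci counted in, its value turned to -0.34, so its sign depends on that filter.

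**Figure D2:**
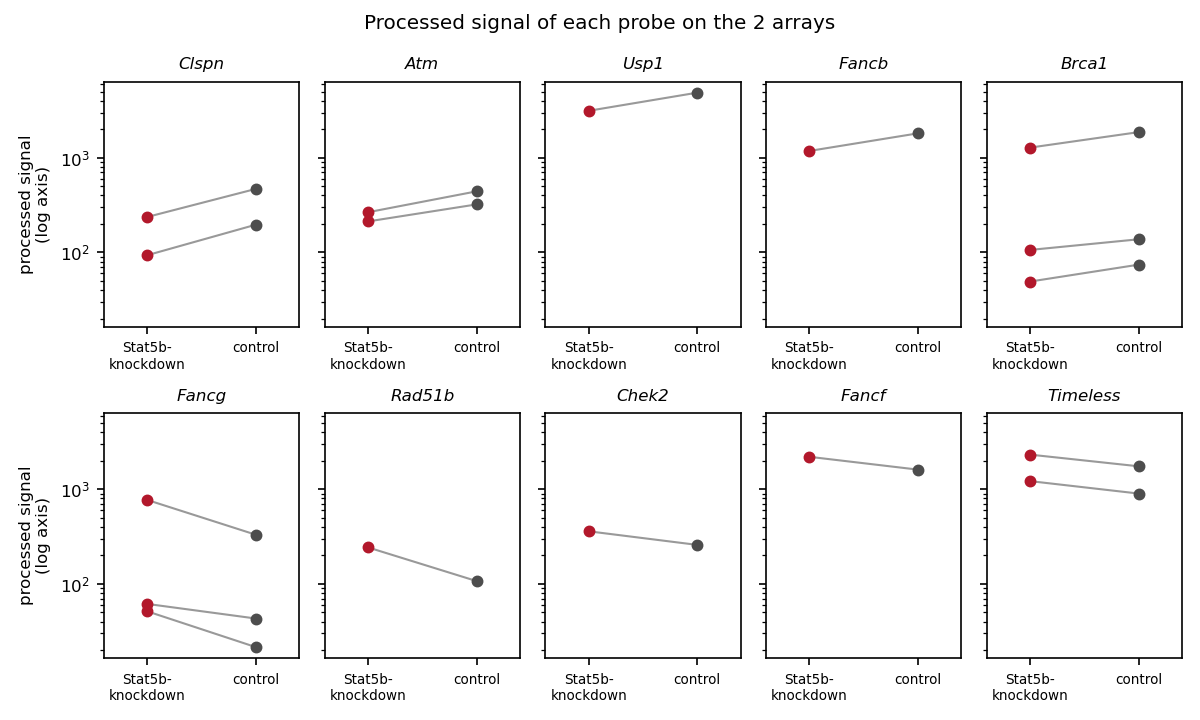
Processed signal (log scale, arbitrary units) of every probe in use for 10 genes, 1 in each panel, with the Stat5b-knockdown array on the left and the control array on the right, and 1 line for each probe. The probes of Clspn, Atm, Usp1, Fancb and Brca1 read lower on the knockdown array, and those of Fancg, Rad51b, Chek2, Fancf and Timeless read higher.

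The genes of the BRCA group, which load the recombinase, all lay below 0, against 48.8% of all measured genes. Their median was -0.34, and none was at 1.5-fold. Brca1, whose protein forms a ubiquitin ligase with BARD1, had 1279, 106 and 49.2 on the knockdown array, against 1863, 137 and 74.2 on the control array. All 3 Brca1 probes were lower, by -0.54, -0.37 and -0.59, for a difference of -0.50 ± 0.12. The 2 dimmer Brca1 probes lie in the last rows of the array, and the value without them was -0.54. Bard1 had 1808 and 86.2 on the knockdown array, against 1998 and 140.5 on the control array, a difference of -0.43 ± 0.15. The Bard1 probes gave -0.15 and -0.70, so its brighter probe alone was within the SD between probes. Brca2, the recombinase loader, had 405, 348 and 50.9 on the knockdown array, against 540.3, 447 and 60.4 on the control array. The Brca2 probes gave -0.42, -0.36 and -0.25, for a difference of -0.34 ± 0.12. Every probe of Brca1, Bard1 and Brca2 was thus lower on the knockdown array.

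The partners of BRCA1 and BRCA2 did not have such even probes. Palb2, the bridge between BRCA1 and BRCA2, had 129.9, 61.7 and 34.03 on the knockdown array, against 117, 60.3 and 38.8 on the control array. Its difference of -0.01 ± 0.13 averages probes of both signs. Brip1, the helicase that binds BRCA1, had 105 and 148 on the knockdown array, against 157 and 140.5 on the control array. Its probes gave -0.58 and 0.07, for a difference of -0.26 ± 0.15, and the lower of them lies in the last rows of the array.

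Among the recombinase paralogs, which steady the recombinase filament, Rad51b stood apart from the other 4 genes. Its probe in use had 243 on the knockdown array and 107 on the control array, a difference of 1.18 ± 0.21, or 2.27-fold. Both arrays left a second Rad51b probe too dim to use, so the value rests on 1 probe. It was past 2-fold in 7 of 9 alternatives, but several of these use the same probe and signals and could not move it. The Rad51b value was 0.92 with the normexp background and 0.75 with the dim probe counted in. The first 30 of its 60 bases are shown because this is the highest of the 40 genes.
Rad51b probe: ggactgcgctgcttggaaaaaggaaacgga

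The other paralogs lay at or below 0. Rad51c had 24271 and 27.3 on the knockdown array, against 28085 and 28.9 on the control array, a difference of -0.15 ± 0.18. Rad51d had 579.7, 316 and 103 on the knockdown array, against 716, 371 and 85.3 on the control array. Its probes gave -0.31, -0.24 and 0.26, for a difference of -0.09 ± 0.12. None of these exceeded the SD between probes of 1 gene. Xrcc2 had 284 and 52.5 on the knockdown array, against 318 and 65.0 on the control array, a difference of -0.24 ± 0.15. Xrcc3 had 1097 on the knockdown array and 1114 on the control array, a difference of -0.02 ± 0.20. The median of the 5 paralogs was -0.09.

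The 3 genes that anneal strands or move the recombinase along DNA had a median of 0.03, each within the SD between probes. Rad52, whose protein anneals single strands, had 286, 95.1 and 20.5 on the knockdown array, against 292, 88.0 and 16.0 on the control array, a difference of 0.14 ± 0.16. Rad54l, a translocase, had 843, 227 and 73.6 on the knockdown array, against 869, 190.2 and 80.3 on the control array, a difference of 0.03 ± 0.12. Both genes had probes of both signs. Rad54b, a related translocase, had 574 and 29.4 on the knockdown array, against 681 and 37.5 on the control array, a difference of -0.30 ± 0.17, which was -0.67 with its dim probe counted in.

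End resection, the trimming of broken ends to single strands, had a median of -0.38. Of its 5 genes, 4 (80.0%) were lower on the knockdown array by more than the SD between probes, against 20.3% of all measured genes. Whether these shares differ was not tested. Mre11a, which encodes the nuclease of the break-sensing complex, had 3762 on the knockdown array and 5204 on the control array, a difference of -0.47 ± 0.20. Nbn, which encodes the subunit of that complex that binds ATM, had 326 on the knockdown array and 446 on the control array, a difference of -0.45 ± 0.20. Rad50 had 1643 and 267 on the knockdown array, against 1362 and 224 on the control array, a difference of 0.26 ± 0.14. Within the MRE11-RAD50-NBN complex, then, 2 transcripts were lower on the knockdown array and that of the ATPase Rad50 was not. Rbbp8, whose protein CtIP starts resection, had 2397 and 41.3 on the knockdown array, against 2853 and 58.3 on the control array, a difference of -0.38 ± 0.16. Exo1, the exonuclease that extends it, had 3817 on the knockdown array and 4949 on the control array, a difference of -0.38 ± 0.20. Mre11a, Nbn and Exo1 rest on 1 probe each.

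The RecQ helicases, which unwind recombination intermediates, had values of opposite sign. Blm, the Bloom syndrome helicase, had 1019, 824 and 121 on the knockdown array, against 1495, 1076 and 139 on the control array, a difference of -0.38 ± 0.12. Wrn, the Werner syndrome helicase, had 616, 281, 94.6 and 53.3 on the knockdown array, against 543, 240.2, 79.2 and 42.7 on the control array, a difference of 0.24 ± 0.11. All 3 probes of Blm were lower and all 4 of Wrn were higher on the knockdown array. Rad18, a ubiquitin ligase for the sliding clamp in post-replication repair, had 777, 349 and 218 on the knockdown array, against 640.1, 300.1 and 192 on the control array, a difference of 0.22 ± 0.12. All 3 of its probes were higher, within the SD between probes of 1 gene.

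The promoter windows of RefSeq covered 29 of the 40 genes with 33 windows of 300 bases. Each was searched on both strands for 4 E2F-type strings (TTTGGCGC, TTTCCCGC, TTTCGCGC and TTTGCGCG), for TTTGAA (the CHR element of cell cycle genes), for TTCNNNGAA and for CCAAT, and matches of different strings could overlap. An E2F-type string was found for 6 genes, Bard1, Brca2, Chek2, Clspn, Fancg and Rad51c, which is 20.7% of the 29, against 2.45% of all 27025 genes with a window and 4.15% of the measured ones. These 6 genes had differences on both sides of 0, with Clspn the lowest and Fancg the highest. TTCNNNGAA was found for Fancb, Fancl and Rad54l, 10.3% of the 29 against 9.55% of all genes. TTTGAA was found for 2 genes (6.90% against 20.2%) and CCAAT for 18 (62.1% against 41.1%). A match is a string of letters in the window and not a measured site.

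Other genes of the same pathways were read from lists for comparison, and every listed gene was measured. The lists were chosen with earlier results of these data known. Of all measured genes, 48.8% lay below 0, 8.42% were 1.5-fold lower and 11.0% were 1.5-fold higher. Of 20 further Fanconi and crosslink repair genes, 10 lay below 0 and 10 above, 2 were 1.5-fold lower and 2 were 1.5-fold higher, with a median of 0.04. The lowest were Ercc1 at -0.75 ± 0.14, which encodes a subunit of the unhooking nuclease, and Ube2t at -0.71 ± 0.14, the ubiquitin carrier that works with FANCL. The highest were the nuclease subunit Eme2 at 0.74 ± 0.14 and the crosslink nuclease Fan1 at 3.43 ± 0.27, the 1 gene of the list past 2-fold. Fan1 had scaled log2 levels of -1.01 on the knockdown array and -4.45 on the control array, from 1 probe in the last rows of the array. Its control reading was dim, as the lowest level well above background on that array was -5.35. Of 27 further recombination genes, 13 lay below 0 and 14 above, 2 were 1.5-fold lower and 0 higher, with a median of 0.01. Gen1, a resolvase, was lowest at -0.65 ± 0.12, next to the resection nuclease Dna2 at -0.63 ± 0.12. Zswim7 at 0.42 ± 0.20, a partner of the paralogs, and Rmi1 at 0.51 ± 0.20, a partner of BLM, were highest.

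The further checkpoint genes leaned to one side. Of 10, 9 lay below 0, 4 were 1.5-fold lower and 0 were 1.5-fold higher, with a median of -0.48. Cdc25a, the phosphatase that CHK1 restrains, was lowest at -0.90 ± 0.12, followed at -0.83 ± 0.20 by Rad17, the loader of the checkpoint clamp. The clamp subunits Rad1 at -0.02 ± 0.12 and Hus1 at 0.39 ± 0.21 were highest.

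Beside these, 25 mitosis genes all lay below 0, with a median of -0.67. Of them, 17 (68.0%) were 1.5-fold lower, against 8.42% of all measured genes, and 2 (8.0%) were 2-fold lower, against 2.41%. Ccna2 (cyclin A2) at -1.16 ± 0.14 and the spindle gene Hmmr at -1.13 ± 0.12 were lowest, and Birc5 (survivin) at -0.40 ± 0.14 and the checkpoint kinase Bub1b at -0.36 ± 0.20 were highest. Of 37 replication origin and fork genes, 26 lay below 0 (70.3%, against 48.8% of all measured genes), with a median of -0.28. At 1.5-fold, 5 were lower (13.5%, against 8.42%) and 0 were higher (against 11.0%). Their lowest were Pola2 (a polymerase alpha subunit) at -0.88 and Cdc45 (a helicase cofactor) at -0.86, and their highest Orc5 (an origin subunit) at 0.29 and Rfc2 (a clamp loader subunit) at 0.42. The 40 repair and checkpoint genes, at a median of -0.12, lay between these lists and all measured genes. Whether cell cycle phase moved with the repair genes was not tested.

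Lists of other repair pathways had medians from -0.21 to 0.05, with no gene of end joining or of either excision pathway at 2-fold. End joining (12 genes) had a median of -0.05, with 2 genes 1.5-fold lower, from Nhej1 at -0.66 and Lig4 at -0.59, both of the ligation complex, to the kinase Prkdc at 0.40 and the polymerase Poll at 0.48. Mismatch repair (7 genes) had a median of -0.10. Msh3, a mismatch sensor, was at -1.17 ± 0.11, the 1 gene of that list past 1.5-fold or 2-fold, with Pms2 at -0.28 and Msh6 at 0.26. Base excision repair (18 genes) had a median of -0.21, with 14 below 0 and 1 at 1.5-fold lower, from the glycosylase Neil3 at -0.86 and Parp1 at -0.42 to the glycosylases Tdg at 0.14 and Mbd4 at 0.32. Nucleotide excision repair (17 genes) had a median of 0.05, with 1 at 1.5-fold higher, from Gtf2h2 at -0.34 and Gtf2h1 at -0.29 of the TFIIH complex to the damage sensors Ddb2 at 0.50 and Cetn2 at 0.63. Whether any list differs from another was not tested.

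**Figure D3:**
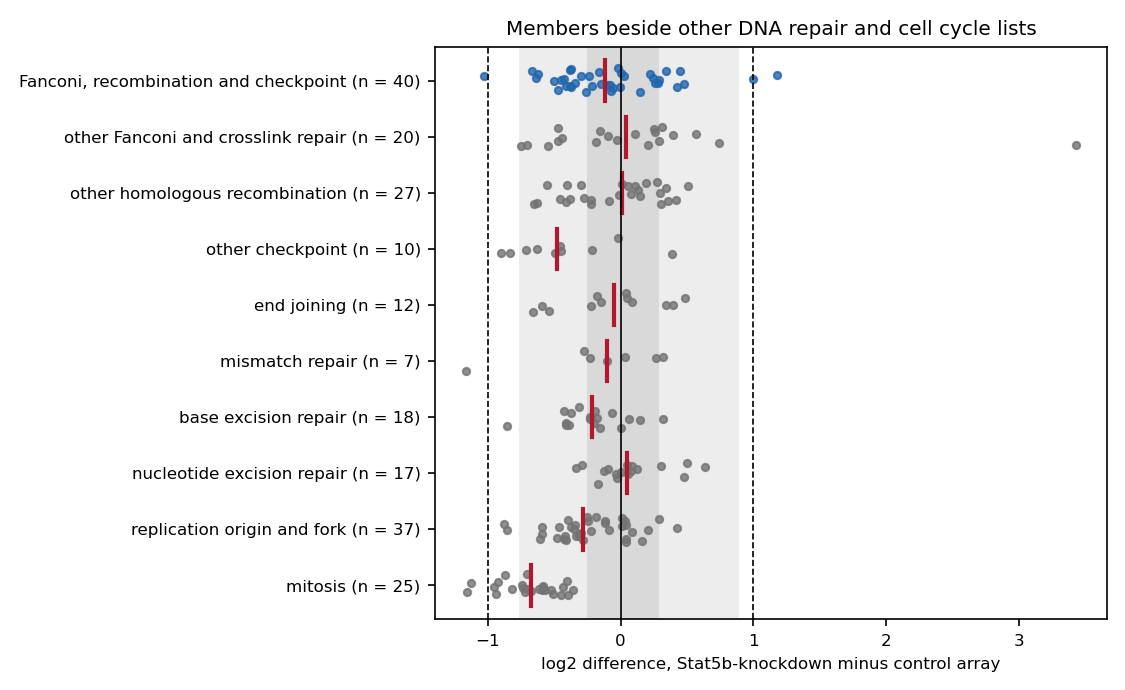
Log2 difference (Stat5b-knockdown minus control, horizontal axis) of every gene in the 40 repair and checkpoint genes and in each further list, with 1 point per gene, a red bar at each median and dashed lines at 2-fold. Shading marks the 25th to 75th and the 5th to 95th percentiles of all measured genes. The mitosis points all lie below 0 (median -0.67), while the 40 genes spread over both sides (median -0.12).

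**Figure D4:**
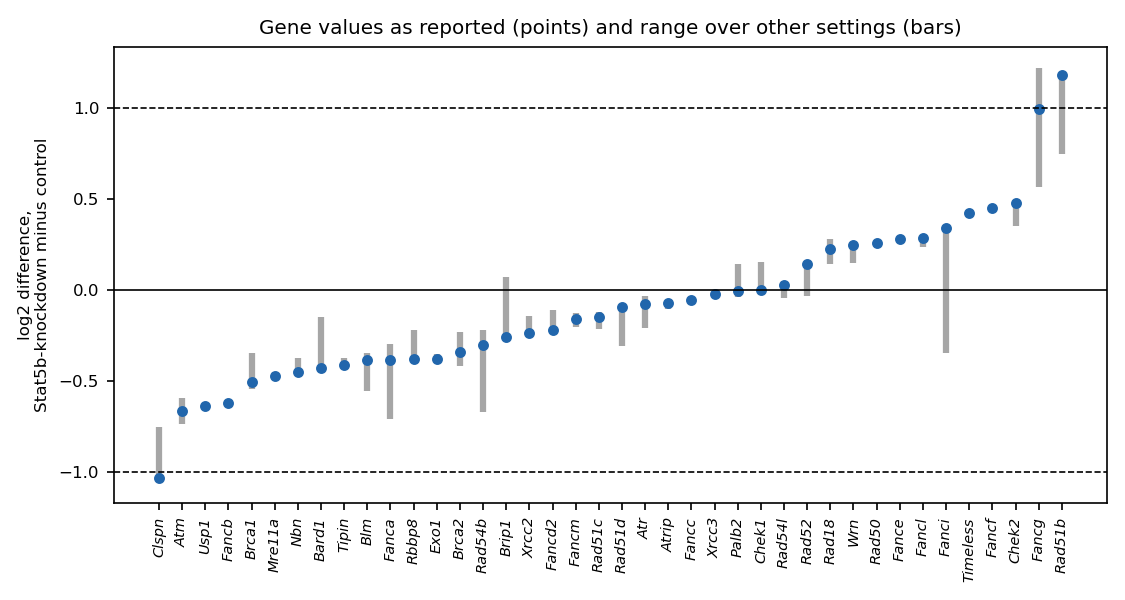
Log2 difference (Stat5b-knockdown minus control, vertical axis) of each of the 40 genes as reported (points), in order of that value, with grey bars for the range over the alternative settings that measured the gene and dashed lines at 2-fold. Clspn ran from -1.05 to -0.75 over 9 alternatives, and the bars of Fanci, Brip1, Palb2, Rad52, Rad54l and Chek1 cross 0.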

How the data were processed

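Each of 2 arrays, 1 per group, measured 1 RNA in 1 colour (Cy3), both on 1 slide. The deposited intensity values are processed signals, background-subtracted by Agilent Feature Extraction 12.1.0.3 (protocol GE1_1200_Jun14), per the file headers. The authors' table holds log2 values; set against the scanner files, each of its columns was log2 of the processed signal minus a constant (8.94 for either array), and its column medians were -3.83 for either array. Scale, centring and direction are thereby settled.

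Spots flagged as outliers on either array and control spots were left out, which kept 56594 probes. The log2 signals (floor 1) were scaled to the 75th percentile of each array. Of the probes, 33150 (58.6%) on the Stat5b-knockdown array and 33701 (59.5%) on the control array were well above background, and 0 spots were saturated. Probes were named by accession (34560), current symbol (9190), synonym (275) or the file's symbol (2144), and 10425 stayed unnamed. The scanner files name build mm9, so the RefSeq tables (GRCm38.p6) served for names, gene order and promoter sequences only.

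All 40 genes are described, with Stat5b and the 2 lowest and 2 highest genes of each further list, of which 1 is not reported here. Members and lists were chosen with earlier results of these data known. The calculation was tested on simulated data. Python 3.11.15, numpy 2.4.6, pandas 2.3.3, R 4.3.3 and limma 3.58.1 were used. Alternatives were normexp background correction (on the median signal, since the files list no mean signal), median scaling, quantile normalization, no filter on dim probes, brighter probes alone, the brightest probe per gene, curated RefSeq probes alone, leaving out the last 64 rows, the authors' table and the authors' gene symbols.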

Additional observations from a re-analysis of the deposited data

How the results depend on the processing

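With 1 array per group, no replicate could be left out and the number of arrays limits the precision. No paired analysis was possible because each group has 1 array. Over 10 alternative settings, 220 values of counts and medians stayed close to the main value and 20 moved, and 375 values of single genes stayed close and 14 moved. A count was close when within 1.5-fold of the main count. A median or single gene was close when within 0.310 divided by the square root of its number of genes or probes. Some settings leave the probes and signals of a gene as they were, so many single-gene values could not move there. The authors' gene symbols left all 40 genes unchanged. Median scaling and the authors' table shifted differences by nearly the same small amount for every gene, so counts and medians could hardly move there. The median of the 40 genes ran from -0.16 to -0.07. With the normexp background, 0 of the 40 genes were 2-fold lower, 0 were 2-fold higher and 1 was 1.5-fold higher, and the mitosis median was -0.61. Without the filter on dim probes, 0 were 2-fold higher and 6 were 1.5-fold lower, among them Fanca at -0.71 and Rad54b at -0.67, and all 26878 genes had a median of 0.10. With brighter probes alone, which measured 30 of the genes, 0 were 2-fold lower, 2 were 1.5-fold lower and 1 was 1.5-fold higher. The medians there were 0.28 for the Fanconi core complex, 0.12 for other Fanconi genes, -0.11 for other recombination genes, -0.59 for other checkpoint genes, -0.16 for end joining and -0.25 for mismatch repair. With the brightest probe of each gene, 0 were 2-fold lower and 2 were 2-fold higher (Fancg and Rad51b), with medians of -0.15 for the BRCA group, -0.18 for end joining and -0.25 for mismatch repair. Without the last rows, which dropped the only probe of Usp1, the median of the clamp group was 0.061, against -0.22 with them. Over the whole array, 394 genes were 2-fold lower and 600 higher; the counts were 167 lower and 191 higher with normexp, 1000 lower and 1282 higher without the filter, and 194 lower and 167 higher with brighter probes alone. Signs of small values turned for Fanci (-0.34 without the filter), Brip1 (0.07 with the brightest probe or without the last rows), and, near 0, for Palb2, Rad52, Rad54l and Chek1. The causes were not tested.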

Other observations

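The protein-coding genes next to the most changed members were read in gene order, a choice made after the values were seen. Beside Clspn, Ago1 had a log2 difference (Stat5b-knockdown minus control) of 0.11 ± 0.18, Ago4 one of -0.22 ± 0.28, 5730409E04Rik one of 1.23 ± 0.20 and Psmb2 one of -0.01 ± 0.12. None of these 4 neighbours was 1.5-fold lower with Clspn, and 1 was 2-fold higher. Beside Fancg, Vcp had -0.32 ± 0.10, Pigo had 0.49 ± 0.14 and Stoml2 had 0.06 ± 0.14, none of them 1.5-fold apart. Beside Rad51b, Zfp36l1, which encodes an RNA-binding protein that speeds mRNA decay, had 0.72 ± 0.14, Zfyve26 had 0.33 ± 0.15 and Rdh12 had 0.06 ± 0.20. Of these, Zfp36l1 alone was past 1.5-fold, in the same direction as Rad51b. The neighbours 1700022I11Rik (of Fancg) and Gm52006 (of Rad51b) were not measured on both arrays.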
